A study of Mus musculus with 2 samples.

Results

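The Hsd17b and Hsd11b genes encode 17β- and 11β-hydroxysteroid dehydrogenases. The 10 genes of these names considered here were Hsd17b1, Hsd17b2, Hsd17b4, Hsd17b7, Hsd17b10, Hsd17b11, Hsd17b12, Hsd17b13, Hsd11b1 and Hsd11b2, out of 29923 genes measured on the array. They were selected by gene name, with all 14 of their probes. The family itself was chosen by the ratio of Hsd17b2 between Pparg-cKO and control pools on these arrays, which was already known. Their ratios are therefore given as descriptions with no p-value, and counts of members called are printed only beside the counts over all genes. RNA came from pools of ureters dissected from NMRI mouse embryos at E18.5 and was hybridised to 2 two-colour arrays. Pparg-cKO embryos (Pax2-cre/+; Pparg(fl/fl)) were compared with controls (Pparg(fl/?), cre-negative per the study's methods, where the matings leave a floxed or a wild-type allele for the ?), 1 pool of each per array. The first array held the female pools and the second the male pools, and the dyes were exchanged between them, so that sex, dye orientation and array cannot be told apart. The Pax2-cre line recombines in the nephric duct, the ureteric epithelium and the renal collecting duct, and the ureteric mesenchyme, which the pools also contained, lies outside this domain.

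The sign of every ratio was taken from the deposited value table, whose columns are titled Pparg-cKO vs control. The dye labels, read as written, run the opposite way on both arrays. The words higher and lower below follow the deposited table, as do the stained sections of the study, and under the dye labels as written each would be exchanged, while sizes, counts and p-values would stay. Each array carried 39429 probes on 4 spots each. Between 66.2% and 77.3% of spots were well above background, and 0 were saturated. The sex labels were borne out, since Ddx3y, a Y-linked gene, read 1708 and 1855 in the male pools and 1.78 and 0.628 in the female pools. The single Pparg probe read 12357 in the Pparg-cKO and 6113 in the control female pool, and 12930 and 6688 in the male pools. It starts at base 1562 of the transcript, whereas the floxed segment is exons 2 and 3, and a shortened transcript is still made from the recombined allele, so this probe does not check the deletion. For the tissue label, 10 of 10 urothelium and 7 of 7 smooth muscle markers were well above background. This does not single out the ureter, since 9 of 9 liver and 7 of 7 skeletal muscle markers were so too.

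Most of these enzymes belong to the short-chain dehydrogenase/reductase superfamily and use NAD or NADP to interconvert hydroxyl and keto groups. HSD17B1 and HSD17B2 act in opposite directions on sex steroids. HSD17B1 reduces estrone to the potent estradiol, and HSD17B2 oxidises estradiol and testosterone to estrone and androstenedione. HSD11B1 regenerates active glucocorticoid from its inert keto form, and HSD11B2 inactivates it, which protects the mineralocorticoid receptor in the renal collecting duct. Despite their names, HSD17B4, HSD17B7, HSD17B10 and HSD17B12 are known mainly for fatty acid, cholesterol and mitochondrial RNA metabolism, and HSD17B11 and HSD17B13 are lipid droplet proteins.

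Since each array value rests on hybridisation to 60-base probes, the probes of the genes on which the results turn are shown first. Positions are those of the array design on mouse build mm9. Exon structure in that build was not analysed here. The Hsd17b2 probe lay on the plus strand at chr8:120282508-120282567 and began at base 858 of the transcript. It is printed whole, 5′ to 3′. Capitals mark the longest run of bases that it shares with a probe of any other gene on the array.

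Hsd17b2: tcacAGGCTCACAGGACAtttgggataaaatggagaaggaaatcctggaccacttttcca

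That run was 14 bases long and was shared with a probe of Gpn1. Laid base against base, the Hsd17b2 probe had at most 20 of its 60 bases identical to a probe of another member. Hsd17b7 and Hsd17b11 are shown because their probes can be compared with each other. For these, and for Hsd11b2, a window of 30 bases is given, and capitals again mark the longest run shared with a probe of another gene.

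Hsd17b7 probe 1 (chr1:171880203-171880262, minus strand): ttaatctaaaATTTCATCATATCcctcggg
Hsd17b7 probe 2 (chr1:171885632-171885691, minus strand): gaggcttTTAATAAATAAATAAAgtcgtat
Hsd17b7 probe 3 (chr1:171883182-171883241, minus strand): gaaaaaTTCTATGAGGTCttactggagctg
Hsd17b11 probe 1 (chr5:104419127-104419186, minus strand): ggttttcaTTTACAGTGTCTGTaactgcac
Hsd17b11 probe 2 (chr5:104430797-104430856, minus strand): ggtttcctAATAAAATCATAGCTctgatgt
Hsd11b2 (chr8:108046785-108047002, plus strand): tggctgctCCAAGACAGCTGCAGtgactaa

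The Hsd11b2 position covers 218 bases of the genome for a probe of 60 bases. Over these 7 probes the longest shared run was between 12 and 16 bases.

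Hsd17b2 was much lower in Pparg-cKO than in control ureters on both arrays. Its processed signal, the scanner's background-corrected brightness in arbitrary units, was 101.5 in the female Pparg-cKO pool and 862.8 in the female control pool. In the male pools it was 79.5 in Pparg-cKO and 749.1 in control. The Pparg-cKO pools thus held 11.8% and 10.6% of the control signal. After loess normalisation the log2 ratio of Pparg-cKO over control was -2.85 (female array) and -3.03 (male array). The mean was -2.94 ± 0.13 (SD, n = 2 arrays), a 7.66-fold lower level. The 4 spots of the probe ranged from -2.92 to -2.81 in females and from -3.12 to -2.96 in males, and all spots of all 4 pools were well above background. Fewer cells of a type and less RNA per cell cannot be told apart in such pools.

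**Figure D1:**
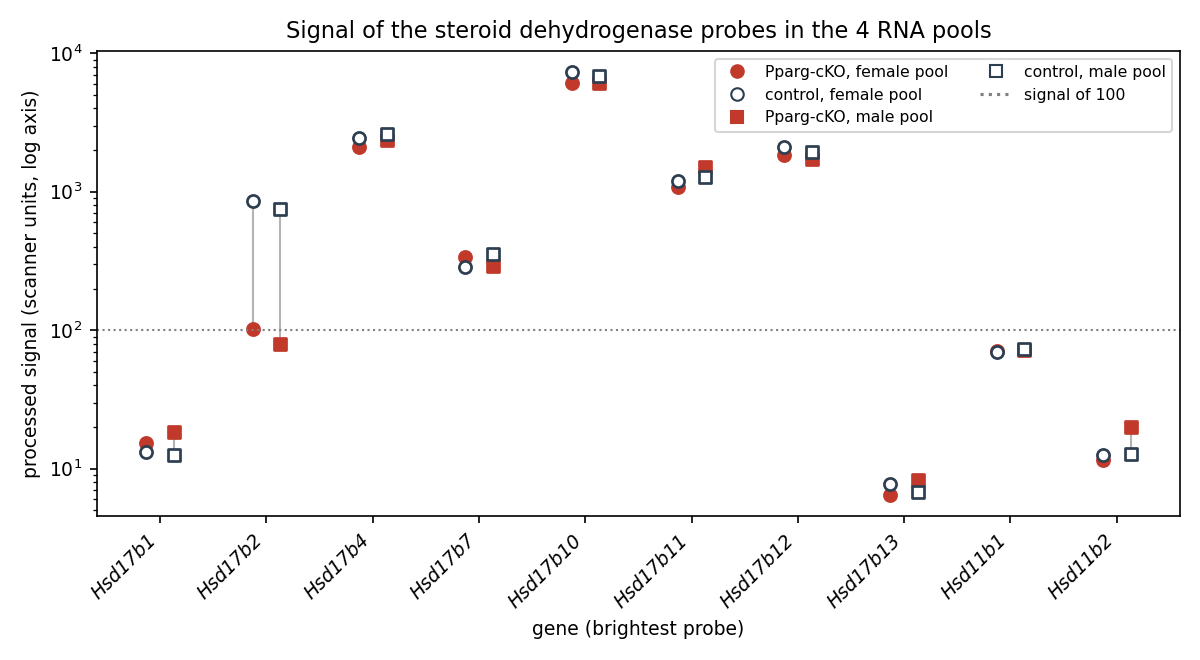
Processed signal (scanner units, log axis) of the brightest probe of each of the 10 genes, with Pparg-cKO pools filled and control pools open, circles for the female and squares for the male pools. Hsd17b2 is the gene in which the Pparg-cKO pools, at 101.5 and 79.5, lie far below the control pools, at 862.8 and 749.1, while the pools of every other gene lie closer together. Signals of different genes come from different probes and are not to be ranked.

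Hsd17b2 lay among genes of superficial (S) cells, the luminal cell layer of the urothelium. On stained sections the study had already placed Hsd17b2 itself in S cells of controls, and found it strongly reduced or absent in the mutant. Of the 11 other S cell genes that the study listed with it, all 11 were lower on both arrays, with a median log2 ratio of -1.51. All 11 passed the fold rule described below, and 7 were called by limma. The study chose this list partly on these arrays, so it is not independent evidence of the direction. The summed signal of these genes was 10549 in the Pparg-cKO and 43846 in the control female pool, and 11522 and 35731 in the male pools. This sum is carried by the brightest probes. By mean log2 ratio, Krt20 (-3.09) and Ly6d (-3.01) were lowered by more than Hsd17b2, and the rest of the list by less. The wider urothelium markers (10 of 10 well above background) summed to 56830 and 88156 in the female and to 68056 and 77662 in the male pools, with a median log2 ratio of -0.37. They did not move as 1 group. Upk1a (also on the S cell list), Upk1b and Upk3b, uroplakins of the luminal membrane, were lower past the fold rule (-1.51, -1.02 and -1.67), whereas Epcam, Cdh1 and Foxa1 had higher values on both arrays without passing it. Epcam was near level between the arrays (0.41 in females and 0.48 in males), but the excess of Cdh1 (0.07 and 1.10) and Foxa1 (0.16 and 1.06) lay mostly in the male comparison. Upk2, Upk3a and Trp63 had lower values on both arrays (means -0.51, -0.24 and -0.48), and Krt5 differed in sign (-0.86 and 0.35). The part of these shifts in the Hsd17b2 ratio was not tested.

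By the smallest distance in the log2 ratios of both arrays, the 5 genes most like Hsd17b2 were Ly6d, Krt20, Ttr, Sptssb and Dnmt3l. Likeness over only 2 arrays is a description. Ly6d, a surface protein of epithelial cells, lay 0.196 from Hsd17b2 with ratios of -3.04 and -2.97. Krt20, the keratin that marks S cells, lay at 0.296, with ratios of -3.14 and -3.03. Sptssb, a small subunit of serine palmitoyltransferase in sphingolipid synthesis, lay at 0.307 with -2.79 and -2.72. These 3 genes were on the S cell list. Ttr, the thyroid hormone carrier transthyretin, had ratios of -2.55 and -3.09 (distance 0.304), and Dnmt3l, a cofactor of DNA methyltransferases, -2.26 and -2.44 (distance 0.831). The step from the fourth gene to Dnmt3l was larger than any among the first 4.

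The gene with the opposing activity, Hsd17b1, stayed dim. Its signal was 15.4 in the Pparg-cKO and 13.3 in the control female pool, and 18.4 and 12.5 in the male pools. It was the only member with a higher value in Pparg-cKO on both arrays, by 0.11 and 0.26, mean 0.18 ± 0.10 (SD, n = 2 arrays) on the log2 scale. At this brightness the background correction, which adds a constant of 50, pulls ratios towards 0. In the processed signals the same log2 ratios were 0.22 and 0.55.

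The glucocorticoid pair showed no shift past the fold rule. Hsd11b1 read 70.5 in the Pparg-cKO and 69.4 in the control female pool, and 71.8 and 73.6 in the male pools. These values were nearly equal, with a mean log2 ratio of -0.01 ± 0.01. Hsd11b2 read 11.6 and 12.5 in the female pools, and 20.0 and 12.7 in the male pools. Only the male Pparg-cKO pool stood out, at 157% of its control. The loess ratios were -0.01 and 0.32, mean 0.16 ± 0.23, and the SD exceeded the mean. All spots were well above background in all pools, but the signal stayed under the 100 units set for the fold rule.

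Hsd11b2 is a collecting duct enzyme, so markers of that tissue are given beside it. Of 10 collecting duct markers, 7 were well above background and Kcnj1, Calb1 and Atp6v1b1 were not. Their summed signal was 953 in the Pparg-cKO and 919 in the control female pool, and 1102 and 864 in the male pools. The female sums were thus close, and the male Pparg-cKO sum was the highest, but these sums rest mainly on Fxyd4 and Aqp3. Of the 10 markers, 5 were lower and 4 higher on both arrays. Aqp2, a dim one, read 23.9 against 28.1 in the female and 21.8 against 25.8 in the male pools. Unlike Hsd11b2, it was thus lowest in the male Pparg-cKO pool. Within the list Fxyd4, a regulator of the sodium pump, was higher (log2 ratio 2.38 ± 0.21, limma adjusted p = 0.00620) and Aqp3, a water channel also made by urothelium, was lower (-1.34 ± 0.36, limma adjusted p = 0.0437). The call of Aqp3 was lost with no filter on dim probes (adjusted p = 0.103), that of Fxyd4 was not, and both were lost in the deposited table (0.533). Their part in the Hsd11b2 values was not tested. Kidney tubule markers were well above background for 5 of 8 genes, and Umod, Slc12a1 and Slc12a3 were not. Their sums were 298 against 237 in the female and 301 against 289 in the male pools. Within the list Cdh16, a kidney cadherin, passed the fold rule as higher (0.83 ± 0.04, limma adjusted p = 0.0580), while Lrp2 and Slc22a6, proximal tubule genes, were too dim for that rule. Lrp2 had log2 ratios of -0.13 (female) and -0.89 (male). Slc22a6 had -0.49 and -0.92, with a limma adjusted p of 0.186 that ranged from 0.00430 without an offset, where it was called as lower, to 0.533.

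Hsd17b10, Hsd17b4 and Hsd17b12 were bright and slightly lower on both arrays. Hsd17b10, a mitochondrial dehydrogenase of isoleucine breakdown that is also a subunit of mitochondrial RNase P, read 6141 in the Pparg-cKO and 7337 in the control female pool, and 6107 and 6808 in the male pools. Its log2 ratios were -0.37 and -0.11, mean -0.24 ± 0.18 (1.18-fold lower). Hsd17b4, the D-bifunctional enzyme of peroxisomal β-oxidation, read 2120 against 2449 in the female and 2373 against 2616 in the male pools. Its mean log2 ratio was -0.19 ± 0.11. Hsd17b12, the ketoacyl-CoA reductase of very long chain fatty acid elongation, read 1837 against 2104 and 1720 against 1934, with a mean of -0.18 ± 0.10. Of all tested genes, 26.2% were likewise lower on both arrays. After loess the mean level of these 3 genes was 1.13-fold to 1.18-fold lower. On the male array the spots of each of these probes lay on both sides of 0.

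The remaining members ran in opposite directions on the arrays. Hsd17b7, the 3-ketosteroid reductase of cholesterol synthesis, read 340 in the Pparg-cKO and 287 in the control female pool, and 290 and 354 in the male pools. The log2 ratios were 0.18 and -0.16, with a mean of 0.01 ± 0.24. Its other probes behaved likewise, with 0.09 and -0.26 for probe 2 and with 0.32 and -0.32 for probe 3. In red over green terms, all 3 probes were redder on both arrays, which follows the dye as well as the sex. Hsd17b11 read 1077 against 1203 in the female and 1503 against 1276 in the male pools (-0.24 and 0.28, mean 0.02 ± 0.36). In red over green terms this probe was greener on both arrays, which again follows the dye as well as the sex. The dim second Hsd17b11 probe, at 12.8 to 20.2 units, ran the other way on each array (0.13 and -0.05) and was redder on both.

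Hsd17b13, which is made chiefly by hepatocytes, was close to background. Its brighter probe read 6.46 in the Pparg-cKO and 7.80 in the control female pool, and 8.29 and 6.73 in the male pools. In the female Pparg-cKO pool 1 spot was well above background, and in the male control pool 0 spots were, both of them read in the same channel. The log2 ratios were -0.05 and 0.12, mean 0.04 ± 0.12. The second probe read 2.55 to 4.21 units. Liver markers were well above background in all 9 of 9 genes, with sums of 2264 against 2335 in the female and 2577 against 4982 in the male pools, so the male control pool carried the most. Their part in the Hsd17b13 values was not tested.

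**Figure D2:**
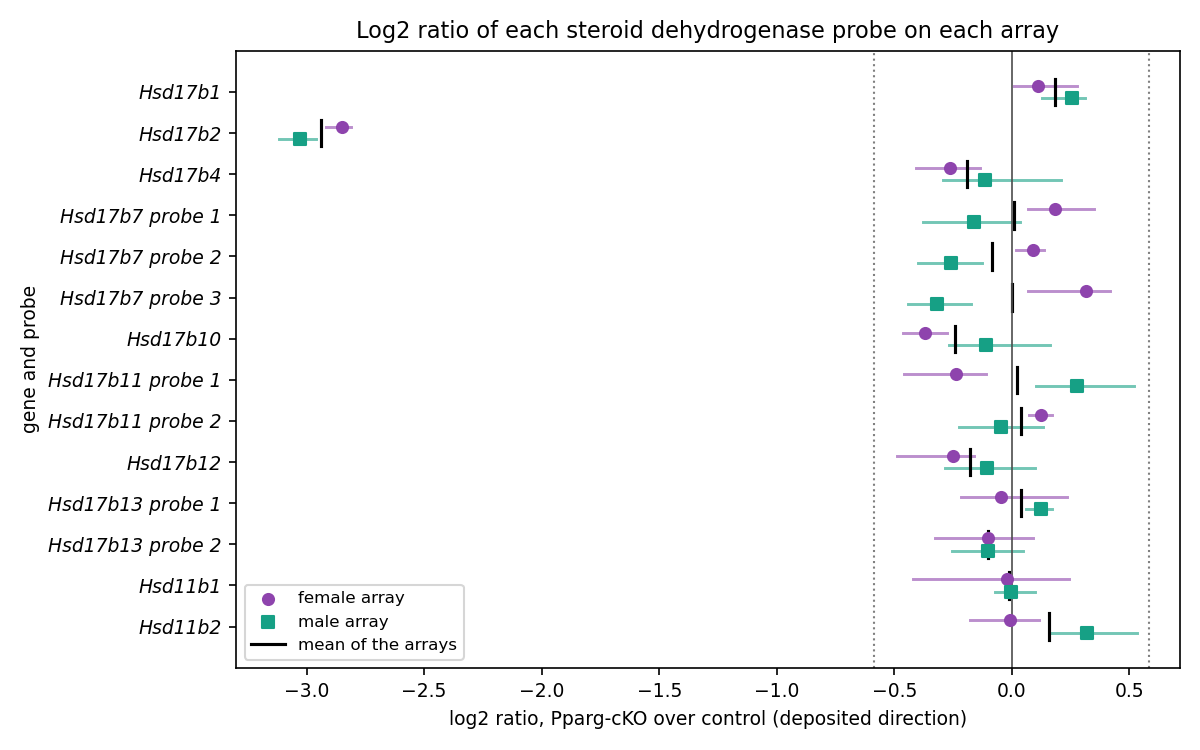
Log2 ratio of Pparg-cKO over control, in the deposited direction, for each of the 14 probes on the female (circles) and the male array (squares). Horizontal lines give the range of the kept spots, black ticks the mean of both arrays and dotted lines a 1.5-fold change. Hsd17b2 lies near -3 on both arrays, all other probes lie within the dotted lines, and the 3 Hsd17b7 probes are to the right of 0 on the female and to the left on the male array.

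The family was next set beside all genes. The study's methods give a fold change of 1.5 and an intensity threshold of 100. The fold rule used here, a reading of these settings, asked for a change of at least 1.5-fold in the same direction on each array and, in the brighter pool of each array, a processed signal of 100 or more. Among the 10 members, 6 were bright enough and 1, Hsd17b2, passed, whereas 258 of 14015 bright genes passed (1.84%), 147 of them lower (1.05%) and 111 higher (0.792%). Hsd17b2 ranked 3 by size among those 147. A further 12 bright genes (0.0856%) passed 1.5-fold in opposite directions, 0 of them members. By limma, with Benjamini-Hochberg adjustment over 22499 genes well above background, 1 of 10 members was called against 169 of all genes (0.751%), 86 higher (0.382%) and 83 lower (0.369%). Since Hsd17b2 brought the family into view, nothing is read from these shares. With the offset of 50, the mean log2 ratios of the other 9 members were at most 0.24 in size, as were those of 83.6% of all tested genes. In the processed signals the dim genes Hsd17b1 and Hsd11b2 were beyond that limit, with means of 0.38 and 0.28. The median over the 10 members was -0.00014, compared with 0.009 over all tested genes. Over the members, 5 were lower on both arrays, 1 was higher on both and 4 differed in sign. Among all tested genes 26.2% were lower on both, 26.6% higher on both and 47.2% differed in sign.

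**Figure D3:**
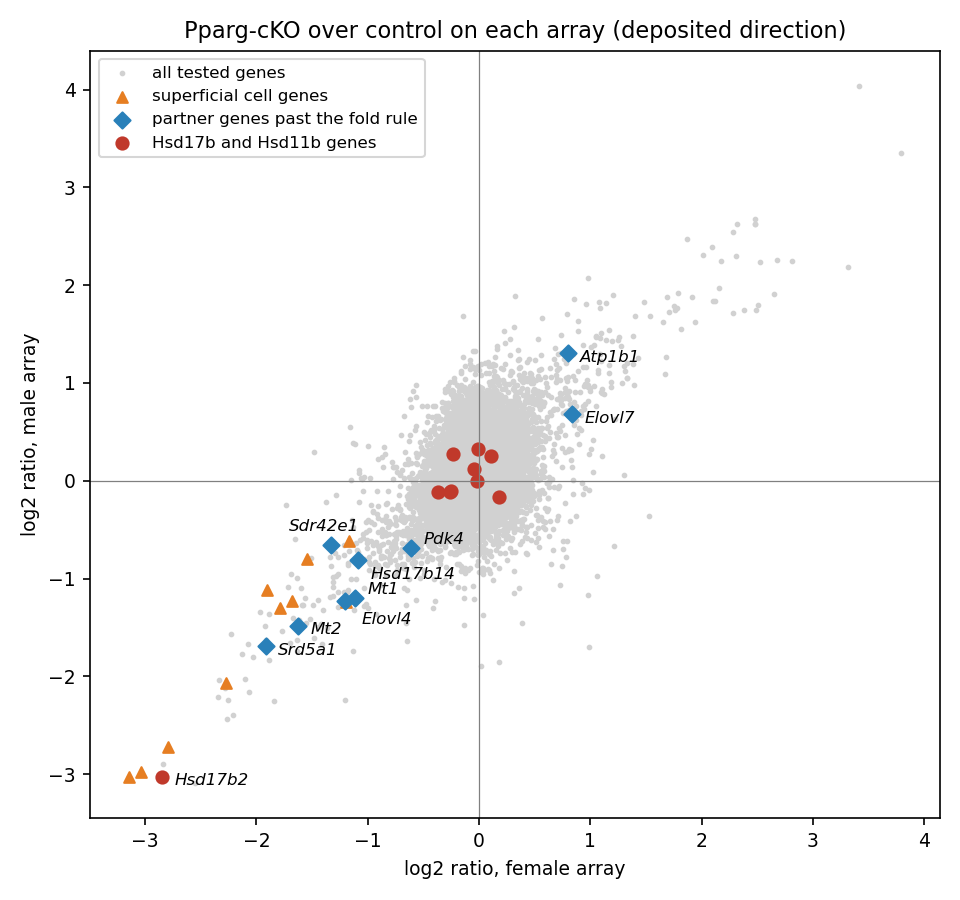
Log2 ratio of each tested gene on the female array (x axis) and the male array (y axis), grey, with the 10 steroid dehydrogenases as red circles, partner genes past the fold rule as blue diamonds and the other S cell genes as orange triangles. Hsd17b2 lies at -2.85 and -3.03 among the S cell genes at the lower left, and the other 9 members lie in the centre of the cloud.

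To see whether the pathways around these enzymes moved, 132 partner genes were taken by role in 11 lists, with the members left out. Of these, 85 were bright enough for the fold rule and 9 passed it (10.6%, against 1.84% of all bright genes), 2 higher and 7 lower. With median centring in place of loess, 6 passed, 2 higher and 4 lower, and Hsd17b14, Sdr42e1 and Pdk4 did not. With the processed signals 8 passed, without Elovl7. The split differed between the arrays. The rule applied to the male array alone passed 16 partner genes, 9 higher and 7 lower, and to the female array alone 13, 3 higher and 10 lower. All genes on the male array alone split into 965 higher and 288 lower. By limma 4 of 120 tested partner genes were called (3.33%, against 0.751%), all 4 lower. At an unadjusted p under 0.05 there were 28, 6 higher and 22 lower, beside 8.51% of all tested genes. The median log2 ratio over the partner genes was -0.08. The lists were chosen with earlier results known, and nothing particular to them is called from these shares.

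Among other enzymes of 17β-hydroxysteroids, Hsd17b14 was lower. Hsd17b14, an NAD-dependent dehydrogenase that oxidises estradiol in vitro, read 87.8 in the Pparg-cKO and 207.4 in the control female pool, and 102.0 and 206.9 in the male pools. It was lower on both arrays, as were 26.2% of all tested genes. The mean log2 ratio was -0.95 ± 0.20 (1.93-fold lower), past the fold rule with loess but not with median centring, and with a limma adjusted p of 0.0591. Of the 7 genes in this list, Hsd17b3 and Hsd17b6 were not well above background, and the list's median was -0.07. Hsd17b3 reduces androstenedione to testosterone in the testis.

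Of 12 related short-chain dehydrogenases, Sdr42e1 alone passed the fold rule. It read 118.7 against 313.9 in the female and 157.9 against 281.7 in the male pools. The log2 ratio was -1.33 in the female and -0.66 in the male comparison, on average a 1.99-fold lower level (SD of the log2 ratios 0.48, limma adjusted p = 0.153). Sdr42e1 is also on the study's S cell list. Sdr16c5 and Sdr16c6, retinol dehydrogenases, were not well above background.

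In steroid hormone synthesis the gene past the fold rule was Srd5a1, the 5α-reductase that converts testosterone to dihydrotestosterone. Srd5a1 read 1532 in the Pparg-cKO and 5802 in the control female pool, and 1685 and 5604 in the male pools. The log2 ratios were -1.92 and -1.69, mean -1.81 ± 0.16, a 3.49-fold lower level (limma adjusted p = 0.00903). A second, dim Srd5a1 probe was lower by less (-0.52). Hsd3b1, which makes progesterone and androstenedione, was too dim for the fold rule, at 15.8 against 35.3 in the female and 12.9 against 22.99 in the male pools. Its limma adjusted p was 0.275 and ranged from 0.0252 without an offset, where it was called as lower, to 0.665. The list held 18 genes, of which 1 fell past the fold rule, 0 rose, and Cyp19a1, Cyp11b2, Hsd3b3, Hsd3b6 and Srd5a2 were not well above background. Cyp19a1 encodes aromatase, which makes the estrogens that HSD17B2 oxidises. The median of the list was -0.02. Markers of the adrenal cortex, a neighbouring steroid-making tissue, include Hsd3b1 and were well above background in 7 of 8 genes (Cyp11b2 was not). They summed to 313 against 353 in the female and 250 against 308 in the male pools. Their part in the values of this list was not tested.

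Steroid conjugation and cofactor supply (11 genes) and steroid hormone receptors (10 genes) had 0 genes past the fold rule. At an unadjusted p under 0.05 limma gave 1 and 2 genes, and with adjustment 0 in each. The gene in the first list was Sult2b1, a sulfotransferase of cholesterol and steroids. It was too dim for the fold rule, at 28.4 against 12.99 in the female and 32.7 against 13.02 in the male pools. Its mean log2 ratio was 0.64 ± 0.13 (limma adjusted p = 0.136), but 1.23 in the processed signals, where limma called it (adjusted p = 0.0347), and its adjusted p ranged from 0.00449 without an offset to 0.533 in the deposited table. The largest ratio among bright genes of the first list was that of Por, the electron donor of microsomal P450 enzymes, which read 528 against 600 in the female and 998 against 597 in the male pools. Por thus differed in sign between the arrays (log2 ratios -0.23 and 0.81, limma adjusted p = 0.859). In red over green terms its probe was greener on both arrays, which follows the dye as well as the sex. Among receptors the largest ratio of a bright gene was that of Nr3c1, the glucocorticoid receptor, at 4592 against 4375 and 4628 against 4346. Its mean log2 ratio was 0.09 ± 0.05 (limma adjusted p = 0.915), and a second probe gave -0.07. The receptor list's median was 0.08.

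Genes known to respond to glucocorticoids or mineralocorticoids split. The metallothioneins, which bind zinc and copper and are also induced by metals, were both lower. Mt2 read 1176 against 3516 in the female and 1097 against 3319 in the male pools. Its mean log2 ratio was -1.55 ± 0.10, a 2.93-fold lower level (limma adjusted p = 0.0120). Mt1 read 2571 against 5354 and 2079 against 4873. The mean was -1.16 ± 0.06, 2.23-fold lower (limma adjusted p = 0.0240), with -0.76 at a second, dim probe.

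Other genes of this list went either way. Pdk4, a kinase that restrains glucose oxidation, read 227 against 351 and 218 against 368, with a mean of -0.65 ± 0.06 (limma adjusted p = 0.110). Atp1b1, the β subunit of the sodium pump, read 4210 against 2473 and 6077 against 2529. It was therefore higher in both Pparg-cKO pools, by 1.05 ± 0.36 on the log2 scale (limma adjusted p = 0.0853). Over the 14 genes, 1 was higher and 3 were lower past the fold rule, 8 were higher on both arrays and 4 lower on both, and the median was 0.20. The classical glucocorticoid targets Fkbp5 and Tsc22d3, named after their values were seen, had log2 ratios of 0.21 (limma adjusted p = 0.752) and -0.06 (limma adjusted p = 0.959). Zbtb16, too dim for the fold rule, and Sgk1, also named afterwards, had 0.48 (limma adjusted p = 0.434) and -0.23 (limma adjusted p = 0.659).

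Fatty acid elongation, in which HSD17B12 carries out the second step, held changes in both directions among the condensing enzymes that carry out the first. Elovl4, which extends very long chain fatty acids, read 346 against 837 in the female and 332 against 810 in the male pools. Its mean log2 ratio was -1.22 ± 0.01, 2.32-fold lower (limma adjusted p = 0.0213), and a second probe gave -0.87. Elovl7 read 707 against 378 and 704 against 472, a mean of 0.76 ± 0.11 (limma adjusted p = 0.0826). Hsd17b12 itself, at -0.18, lay near the list's median of -0.16. Of the 12 genes 7 were lower on both arrays and 2 higher, and Elovl3 was not well above background.

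The pathways of the other members held 0 genes past the fold rule and, with the offset of 50, 0 limma calls. Peroxisomal β-oxidation (12 genes) had a median of -0.25, with 9 genes lower on both arrays, 1 higher and 4 at an unadjusted p under 0.05. Its largest ratio among bright genes was that of Acaa1b, a thiolase, at -0.56 ± 0.27 (limma adjusted p = 0.279). Hsd17b4, at -0.19, lay close to that median. Mitochondrial partners of Hsd17b10 (10 genes) had a median of -0.17, again with 9 lower on both arrays and 1 higher, 0 at an unadjusted p under 0.05, and Bckdhb, a subunit of the branched-chain ketoacid dehydrogenase, at -0.25 ± 0.11. Hsd17b10 itself lay at -0.24 ± 0.18, and its relation to the list was not tested. All tested genes, by comparison, had 26.2% lower on both arrays.

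Late cholesterol synthesis (12 genes) lay at a median of -0.07, with 0 genes at an unadjusted p under 0.05. Its largest bright ratio was that of Tm7sf2, a sterol reductase, at 0.23 ± 0.23. The arrays differed for this list as for Hsd17b7, with medians of 0.02 in females and -0.19 in males. Lipid droplet genes (14 genes) had a median of -0.09 and 4 genes at an unadjusted p under 0.05, all lower, with Dgat2, the last enzyme of triglyceride synthesis, at -0.18 ± 0.42. Plin5, a lipid droplet coat protein, and Fitm1, a protein of droplet formation, were too dim for the fold rule and depended on the background correction. Plin5 read 7.94 against 20.0 in the female and 7.73 against 22.9 in the male pools, and Fitm1 2.44 against 8.18 and 3.06 against 7.52. With the offset their mean log2 ratios were -0.61 and -0.33 (limma adjusted p = 0.181 and 0.451). In the processed signals they were -1.45 and -1.52 and limma called both (adjusted p = 0.0240 and 0.0293), as it did without an offset (0.00623 and 0.0223), but not under the other alternatives, where the limma adjusted p reached 0.533 for Plin5 and 0.9998 for Fitm1. Plin1 and Cidec, adipocyte lipid droplet proteins, were not well above background, nor were Cfd and Lep among 7 adipose markers. The summed adipose signal, nearly all of it Fabp4, was 15004 against 18909 in the female and 15106 against 14544 in the male pools. Adipoq, the adipocyte hormone adiponectin, read 12.3 against 85.9 in the female and 8.24 against 13.1 in the male pools (log2 ratios -1.73 and -0.25, limma adjusted p = 0.532, and 0.0451 to 0.646 over the alternatives). Its part in the lipid droplet values was not tested.

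**Figure D4:**
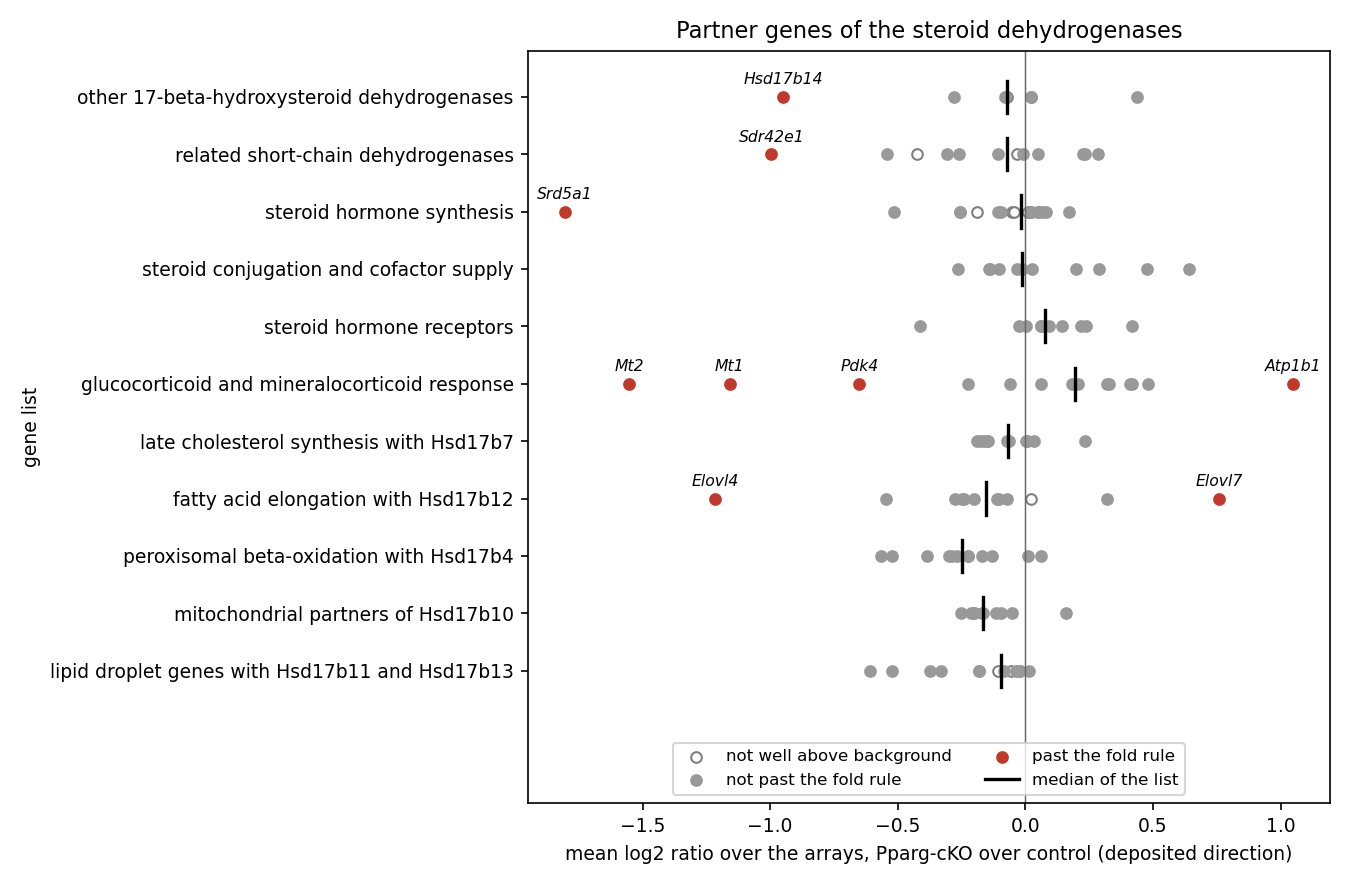
Mean log2 ratio of each gene in the 11 partner lists, in the deposited direction, with genes past the fold rule in red and named, other genes in grey, genes not well above background as open circles and the median of each list as a black tick. The 9 red points belong to 5 lists, Srd5a1 lies farthest to the left at -1.81, and the lists around Hsd17b4, Hsd17b7, Hsd17b10, Hsd17b11 and Hsd17b13 have no red point.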

How the data were processed

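Total RNA was amplified once by T7 RNA polymerase, and the cRNA carried AlexaFluor555 or AlexaFluor647 dye. Per the file headers, the deposited scanner files (Agilent Feature Extraction 10.7.3.1, per the submitters' processing notes) held spot intensity on a linear scale, as mean signal, local background and a background-corrected, dye-normalised processed signal, together with the log10 ratio of red over green. The authors' value table held signed fold changes per probe, whose direction was found by correlation with the loess ratios across probes (0.905 on replicate 1 and -0.932 on replicate 2). It lists exactly 1 in 28.3% and 28.4% of its cells. It served for the direction and as an alternative.

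Outlier spots (2.87% and 3.24%) were removed, signals were corrected by normexp with an offset of 50, and ratios were normalised by loess within arrays in limma 3.58.1 (R 4.3.3), control spots having no weight. Spots were averaged, and a gene was represented by its brightest probe. A gene counted as well above background, and was tested, where at least 0.5 of its kept spots were so in a channel on each array. The mean of 2 ratios was tested with limma, two-sided, at an adjusted p of 0.05 over 22499 genes, with 1 residual and 4.00 prior degrees of freedom. The script was tested on simulated data. The number of arrays limits the precision, and p-values measure only the spread between the arrays, on 1 slide.

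The members and all lists were chosen with earlier results of these data known. All members were named, and in each partner list the genes past the fold rule or called by limma, or else the bright gene with the largest mean ratio. Gene symbols are those of the array design. Alternatives were the processed signals, no offset, median centring, the median over all probes, the deposited table, no intensity threshold, no filter on dim probes, each array alone and the dye labels as written.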

Additional observations from a re-analysis of the deposited data

How the results depend on the processing

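Hsd17b2 was the only member past the fold rule under all 8 alternatives of that rule. Its log2 ratio was -3.16 with the scanner-processed signals, -3.09 without an offset and -3.16 in the deposited table, and -3.03 to -2.85 on single arrays. With the dye labels as written it was 2.94, since every sign is exchanged. The median over the 10 members, near 0, was -0.14 without replicate 2 and -0.056 without replicate 1. Genes past the fold rule numbered 258 (111 higher), against 444 (176 higher) without replicate 2 and 1253 (965 higher) without replicate 1, and 217 (115 higher) with median centring. Partner genes numbered 9 (2 higher), against 13 (3 higher) and 16 (9 higher) on the single arrays. By limma, 169 genes were called, 571 without an offset and 94 with no filter on dim probes. Partner genes called numbered 4, and rose to 8 (1 higher and 7 lower) with the processed signals and to 13 without an offset. In the deposited table limma called 0 genes, 0 members and 0 partner genes, with 2101, 2 and 29 at an unadjusted p under 0.05. The cause of these shifts was not tested. The adjusted p of Srd5a1, Mt1, Mt2 and Elovl4 reached 0.533 in that table, and stayed under 0.05 under the other alternatives. That of Hsd17b14 ranged from 0.00253 to 0.533, and was 0.0591 in the values reported. Atp1b1, Elovl7, Pdk4 and Sdr42e1 were called by limma only without an offset (adjusted p = 0.00386, 0.0163, 0.0302 and 0.00675). The limma test is already paired, since each ratio sets a Pparg-cKO pool against the control pool on the same array, and no further replicate block could be fitted. With 1 array left, limma has no residual degrees of freedom, so single arrays gave values with no test. Of the members under 100 units, Hsd17b1 moved with the background correction (0.18, against 0.38 with the processed signals and 0.39 in the deposited table), and Hsd11b1 stayed near 0. In the same order of settings, Hsd11b2 was 0.16, 0.28 and 0.29, and Hsd17b13 was 0.04, 0.01 and -0.12.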
